A study of Bos taurus with 24 samples.

Results

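The genes described here are the factors that shorten the poly(A) tail of an mRNA, remove its cap and degrade it, taken as every gene symbol of the deposited oocyte table that matched a fixed pattern: the CNOT, EXOSC, DCP, EDC, PAN, PARN, XRN, UPF, SMG, BTG, TOB, ZFP36, PUM, DIS3, SKIV2L, PELO and PNRC names. Of the 11306 genes listed, 47 matched. They were 9 members of the CCR4-NOT complex, 2 other deadenylases, 4 deadenylase adaptors, 4 mRNA-binding proteins that recruit deadenylases, 7 decapping factors, 2 5'-3' exonucleases, 11 factors of the exosome and of 3'-5' decay, 7 factors of nonsense-mediated decay, and PELO, a ribosome rescue factor. Differences were tested for the 45 members with a value over 0.1 FPKM in at least 1 library, out of 9526 such genes in all. DCP1B, a decapping cofactor, and DIS3L2, an exonuclease of uridylated RNA, did not reach that value and were not tested. The highest values of these genes in any library were 0.0331 FPKM for DCP1B and 0.0211 FPKM for DIS3L2. BTG4, PUM2, DIS3 and UPF1 were not analysed here.

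A fully grown oocyte is largely silent in transcription, and its stored maternal mRNAs are translated, kept or destroyed by control of their poly(A) tails. CCR4-NOT and PAN2 shorten the tail, adaptors such as TOB proteins and binding proteins such as ZFP36L2 bring them to chosen mRNAs, and the body of the message is then degraded from the 5' end after decapping or from the 3' end by the exosome. Part of the maternal mRNA is removed while the oocyte matures from the germinal vesicle (GV) stage to metaphase II (MII), and in mouse oocytes several of these decay factors are themselves stored as dormant mRNAs until meiosis resumes.

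The RNA-seq series compared oocytes of adult crossbred beef cows (Bos taurus, Angus-based) that were neither lactating nor pregnant and were collected by ovum pick-up in May (spring) and in July (summer), to ask what season does to the oocyte. There were 6 libraries each of GV May, MII May, GV July and MII July oocytes. GV oocytes were sampled after collection, MII oocytes after in vitro maturation in medium with FSH and serum, and cumulus cells were removed from both. The methods name pools of 4 oocytes, whereas the sample labels speak of individual cells. Both stages and both months came from 1 herd under the same management. The methods take 1 pool to be 1 cow and describe the same cows sampled in each month, with the oocytes of a collection divided between both stages. Pools of different groups may therefore come from the same cow, but the labels do not name the cow of a pool, and the groups were tested as independent. Stage and culture cannot be told apart, nor can the month and its season.

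All libraries carried oocyte transcripts. The 15 of 18 oocyte markers that were listed, among them GDF9, ZP3 and OOEP, summed to between 851.9 and 2364 FPKM, and each was above the lowest value of the table in every library. The 19 of 20 cumulus and granulosa markers that were listed had group medians between 26.6 and 37.1 FPKM in sum, but reached 553.4 FPKM in GV May replicate 6 and 126.2 FPKM in MII May replicate 6, with KRT18 as high as 392.4 FPKM. The FSH receptor FSHR was at the lowest value in 21 of 24 libraries and AMHR2 in 19. By contrast, HAS2, PTGS2, VCAN, KRT8, KRT18, GJA1 and NR5A2 were above it in all 24 libraries. The remaining markers were at it in 1 (VIM) to 16 libraries. KRT8 lay between 9.765 and 146 FPKM and PTGS2 between 0.6296 and 8.685 FPKM. Of 15 cumulus markers tested, 1 was higher in MII than in GV oocytes in May, and 1 was higher and 1 lower in July. Of 6 blood and immune markers listed, HBB was at the lowest value in 23 libraries, PTPRC in 17, CD68 in 13 and LYZ in 9. HBA (0.9022 to 20.46 FPKM) and CD3E (0.0326 to 1.535 FPKM) were above it in every library. Of 5 tested, 1 was lower in MII than in GV oocytes in May. The part of other cell types in the results was not tested.

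The deposited FPKM (fragments per kilobase, corrected for depth) are scaled to 1 common total per library, and 0.01 is the lowest value. In every library, a value less 0.01, multiplied by the distance from the listed start to the listed stop of the gene, was a whole multiple of 1 unit within 0.1 for 97.1% to 98.6% of the values above the lowest. The FPKM thus count fragments per kilobase of the whole gene with its introns, not of exon, and levels of different genes are not compared here, since a long gene is listed low. Members spanned from 224 bases (EXOSC6) to 308493 bases (DIS3L2), with a median of 20346 bases. Fold changes are given on the log2(FPKM + 1) scale, as the difference ± its standard error (SE), which understates the change of a gene listed under 1 FPKM, and beside it as the ratio of group means or on log2(CPM + 1), where CPM are the recovered fragments of a gene scaled to a common sum of fragments per library. The same units give 324654 fragments on the listed genes in GV May replicate 6, 1028739 in MII May replicate 6, 9270855 in GV July replicate 3, 28207689 in GV July replicate 5, and 2543612 to 4660780 in the other 20 libraries.

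The 3 libraries with the lowest share of mapped reads stood apart. They were GV May replicate 6, GV July replicate 2 and MII May replicate 6. Of the 45 members tested, 32 had their highest value of the group in GV July replicate 2 (71.1%, against 52.8% of all genes tested). This held for 21 members in GV May replicate 6 (46.7%, against 44.4% of genes) and for 20 in MII May replicate 6 (44.4%, against 41%). The next lowest share of mapped reads was found in MII July replicate 6, which was the highest of its group for 21 members (46.7%, against 33.2%), and in MII July replicate 4, the highest for 10 (22.2%, against 22.1%). Counts are therefore given with and without these libraries.

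Between the GV and MII stage, decay factors moved in both directions. In May, 11 of the 45 members tested differed at a Benjamini-Hochberg adjusted p under 0.05 in limma, 6 higher and 5 lower in MII oocytes. This was 24.4% of the members, against 24.2% of all genes tested (9.45% higher and 14.7% lower). In July, 14 members differed, 4 higher and 10 lower, or 31.1% against 30.7% of all genes (7.67% higher and 23.1% lower). The share of members called was therefore near that of all genes in both months. At an unadjusted p under 0.05 with over 2-fold change on the compressed log2(FPKM + 1) scale, 5 members were called in May and 5 in July, against 11.8% and 11.5% of genes. With the fold taken between group means of FPKM instead, 14 were called in May (31.1%, against 33.8% of genes) and 16 in July (35.6%, against 35%). The median log2 fold change of members was 0.06 in May and 0.04 in July, beside -0.03 and -0.02 for all genes tested.

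The members that passed in both months numbered 9, each in the same direction in both. The share of all genes that did so was not counted, so this number is not read as particular to the members. CNOT4, CNOT7, DCP1A and PAN2 were higher in MII oocytes, and EXOSC1, EXOSC4, EXOSC6, SMG5 and SMG9 were lower. UPF3B and XRN1 passed in May only, both higher in MII, and CNOT1, DCPS, EDC3, EXOSC9 and PELO passed in July only, all lower in MII. None of these passed the test of the difference between the months. In May the MII and GV libraries did not overlap for 5 members that were higher (11.1%, against 4.65% of genes) and 5 that were lower (11.1%, against 8.98%). In July no member was higher without overlap (3.07% of genes were), and 6 were lower (13.3%, against 14.7%).

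**Figure D1:**
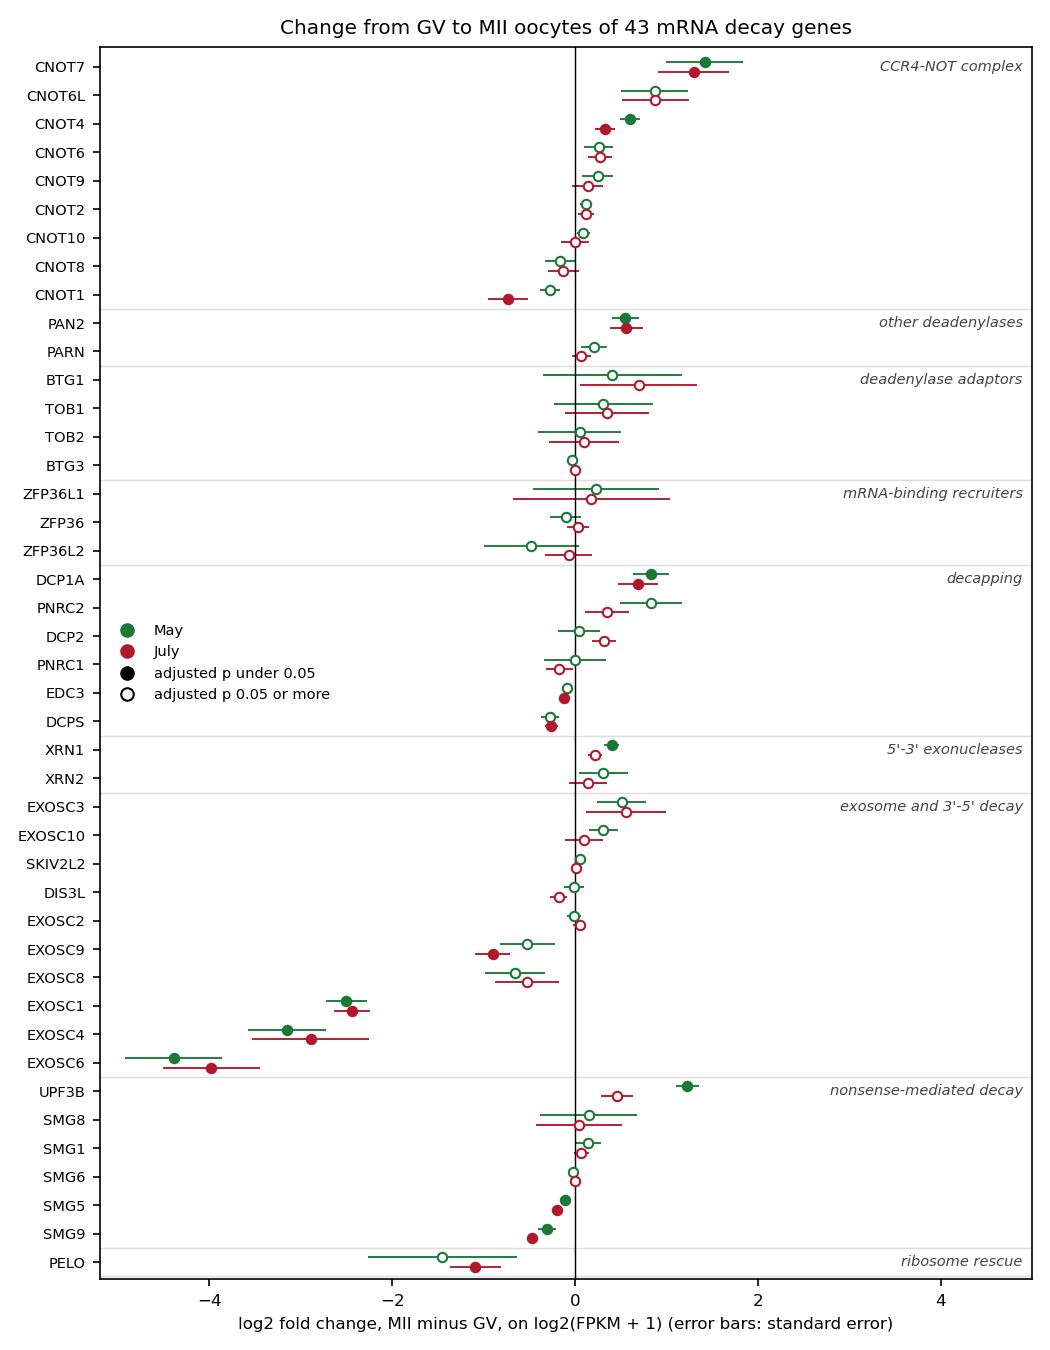
Change from GV to MII oocytes of 43 of the 45 members tested, grouped by role, in May (green) and July (red). The x axis is the log2 fold change on log2(FPKM + 1) with its standard error, and filled points have an adjusted p under 0.05. EXOSC1, EXOSC4 and EXOSC6 lie between -4.39 and -2.44 in both months, while the highest member, CNOT7, lies at 1.42 in May and 1.30 in July.

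Without the 3 libraries with the lowest mapped share, 21 members passed in May, 13 higher and 8 lower, against 41.9% of all genes, and 21 passed in July, 10 higher and 11 lower, against 39.3%. All 11 members of May and all 14 of July remained, with 10 and 7 added. Those added in May were CNOT2, CNOT6L, DCP2, PARN, SKIV2L2, SMG1 and XRN2 on the higher side and CNOT1, EXOSC8 and PELO on the lower side. Added in July were CNOT6, CNOT6L, EXOSC3, PNRC2, UPF3B and XRN1, higher, and EXOSC8, lower. On log2(CPM + 1), 13 members passed in May (6 higher and 7 lower, against 31.4% of genes) and 18 in July (7 higher and 11 lower, against 38.8%), with 10 of the 11 and all 14 kept. After quantile normalization 14 members were higher and 4 lower in May (34.3% of genes were called) and 13 higher and 7 lower in July (41.6%). After median-of-ratios scaling 5 were higher and 6 lower in May (29.1% of genes) and 8 higher and 11 lower in July (38.7%). The libraries hold shares of polyadenylated RNA caught by oligo-dT, so that less mRNA and shorter tails cannot be told apart, and neither can a change in amount per oocyte from a change in the other transcripts.

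In the CCR4-NOT complex, the main deadenylase, CNOT7 and CNOT4 rose in both months while CNOT1 fell in July. Of 9 subunits tested, 2 were called higher in May (CNOT7 and CNOT4) and in July 2 higher (the same ones) and 1 lower (CNOT1). These were 22.2% and 33.3% of the subunits, against 24.2% and 30.7% of all genes. CNOT7, a catalytic deadenylase subunit at chr27:19052444-19067493 of UMD3.1.1, had a lowest, median and highest value of 3.475, 5.25 and 18.4 FPKM in GV and 11.3, 16.9 and 48.9 FPKM in MII oocytes of May. In July the values were 4.15, 6.25 and 22.5 FPKM in GV and 10.9, 20.6 and 35.5 FPKM in MII oocytes. The groups overlapped in both months, as GV May replicate 6 and GV July replicate 2 were the highest of the GV libraries and lay within the MII range. The change was 1.42 ± 0.42 (adjusted p = 0.0262) in May and 1.30 ± 0.39 (adjusted p = 0.0246) in July, with group means 2.76-fold and 2.43-fold higher. The May call was lost when GV May replicate 1, 2 or 5 was left out (adjusted p from 0.0534 to 0.0621), and the July call without GV July replicate 1, 3 or 5 or MII July replicate 4 or 6 (0.0516 to 0.0577).

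CNOT8, the paralog of CNOT7 that takes its place in the complex, did not pass. It lay at 0.01, 0.513 and 1.12 FPKM in GV and 0.218, 0.314 and 0.565 FPKM in MII oocytes of May, and at 0.484, 0.735 and 0.835 and 0.2315, 0.438 and 1.44 FPKM in July. The groups overlapped widely, at -0.16 ± 0.17 (adjusted p = 0.491) in May and -0.13 ± 0.17 (adjusted p = 0.573) in July. The log2 ratio of CNOT7 to CNOT8 within a library, on FPKM + 1, was 2.32 ± 1.18 (SD, n = 6) in GV and 3.90 ± 0.78 in MII oocytes of May (exact permutation p = 0.0281), and 2.35 ± 0.93 and 3.78 ± 0.76 in July (exact permutation p = 0.0195). After Benjamini-Hochberg adjustment over the 24 exact permutation tests of 6 paralog pairs, both gave p = 0.169, and no ratio passed.

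CNOT6L and CNOT6 are the alternative second catalytic subunits of the complex, and neither was called with all libraries. For CNOT6L, GV libraries of May lay at 0.2305, 0.533 and 2.05 FPKM and MII libraries at 0.746, 1.61 and 8.29 FPKM. In July they lay at 0.322, 0.627 and 2.99 FPKM and 0.860, 2.035 and 6.23 FPKM. The highest GV values were again those of GV May replicate 6 and GV July replicate 2, and the groups overlapped. The change was 0.87 ± 0.37 (adjusted p = 0.0983) in May and 0.88 ± 0.37 (adjusted p = 0.0932) in July. Without GV May replicate 6 alone the adjusted p was 0.0426, and without GV July replicate 2 alone it was 0.0238. On log2(CPM + 1), CNOT6L passed in both months (1.44 in May and 1.45 in July, with adjusted p = 0.0415 and 0.0398). CNOT6 was listed at 0.0489, 0.110 and 0.346 and 0.142, 0.219 and 1.35 FPKM in GV and MII oocytes of May, and at 0.0657, 0.127 and 0.508 and 0.2005, 0.307 and 0.813 FPKM in July, with overlap in both months. Its change was 0.26 ± 0.16 (adjusted p = 0.229) in May and 0.27 ± 0.13 (adjusted p = 0.128) in July, where it passed without GV July replicate 2 (adjusted p = 0.0365).

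CNOT4, a RING-finger ubiquitin ligase bound to the complex, changed in the same direction as CNOT7. It was listed at 0.1345, 0.241 and 0.345 FPKM in GV and 0.496, 0.926 and 1.06 FPKM in MII oocytes of May, so that every MII library was above every GV library. In July the values were 0.264, 0.292 and 0.468 and 0.424, 0.720 and 1.025 FPKM, and the lowest MII libraries overlapped with the highest GV libraries. The change was 0.60 ± 0.11 (adjusted p = 0.00258) in May and 0.33 ± 0.11 (adjusted p = 0.0324) in July, with means 3.79-fold and 2.03-fold higher. Behind these values stood a median of 215 fragments in GV and 1132 in MII libraries of May. On log2(CPM + 1) the change was 1.72 in May and 0.80 in July. The July call was lost without GV July replicate 1, 3, 4 or 5 or MII July replicate 2, 5 or 6, each left out alone (adjusted p from 0.0543 to 0.0693).

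The scaffold CNOT1, on which the other subunits assemble, went the other way. Its values in May were 0.421, 0.526 and 0.862 FPKM in GV and 0.117, 0.231 and 0.512 FPKM in MII oocytes, with overlap. In July they were 0.612, 0.813 and 3.07 and 0.116, 0.194 and 0.558 FPKM, and all MII libraries were below all GV libraries. The change was -0.27 ± 0.11 (adjusted p = 0.0871) in May and -0.73 ± 0.22 (adjusted p = 0.0235) in July, where the mean was 4.43-fold lower. Without MII July replicate 5 the adjusted p in July was 0.0513. On log2(CPM + 1) CNOT1 fell by 1.38 in May (adjusted p = 0.00773) and by 2.33 in July (adjusted p = 0.000347). CNOT2, CNOT9 and CNOT10, which are non-catalytic subunits, differed by 0.00 to 0.25 on the log2 scale and did not pass, except that CNOT2 was higher in May without GV May replicate 6 (adjusted p = 0.0192).

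**Figure D2:**
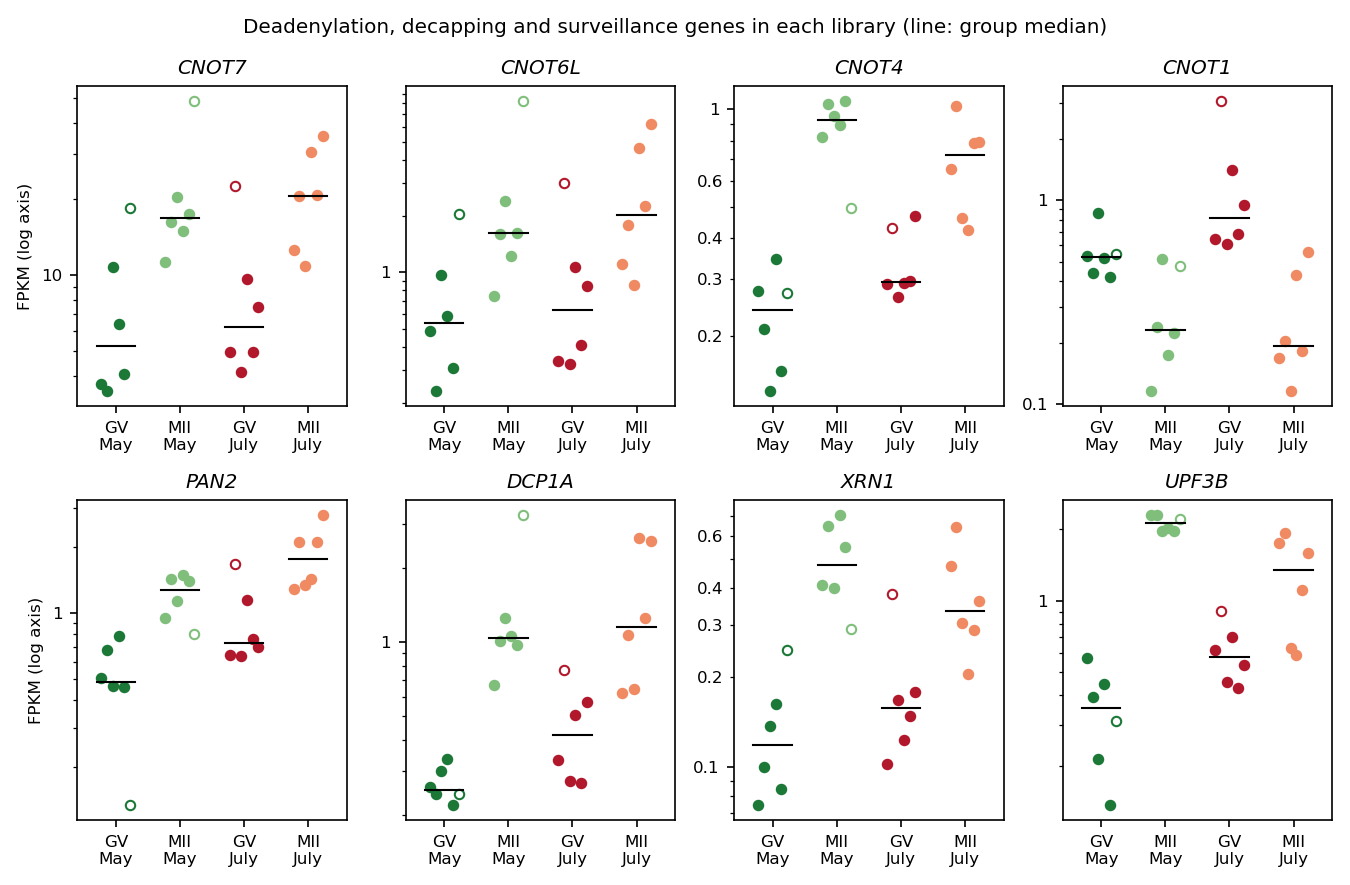
FPKM of 8 deadenylation, decapping and surveillance genes in each of the 6 libraries per group, on log axes, with a line at the group median. Open circles are the 3 libraries with the lowest mapped share. CNOT1 is lower and the other 7 genes are higher in MII than in GV oocytes by their medians in both months, and the open circles of the GV groups are the highest of their group for CNOT7 and CNOT6L.

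Among the other deadenylases, PAN2, the catalytic subunit of the complex that makes the first trimming of the tail, was higher in MII oocytes. In May it lay at 0.133, 0.485 and 0.784 FPKM in GV and 0.802, 1.27 and 1.495 FPKM in MII oocytes, and in July at 0.6375, 0.733 and 1.67 and 1.28, 1.76 and 2.80 FPKM. No library overlapped in May, whereas in July GV July replicate 2 lay within the MII range. The change was 0.55 ± 0.15 (adjusted p = 0.0194) in May and 0.56 ± 0.18 (adjusted p = 0.0323) in July, or 2.39-fold and 1.99-fold by the means. In GV May replicate 6 the value rested on 1 fragment. On log2(CPM + 1) PAN2 did not pass in May (1.07, adjusted p = 0.0806) and passed in July (0.80, adjusted p = 0.0204). Its July call was lost without GV July replicate 1, 3, 5 or 6 or MII July replicate 2, 5 or 6 (adjusted p from 0.0628 to 0.0702). PARN, a poly(A)-specific ribonuclease, was at 0.233, 0.347 and 1.05 and 0.491, 0.6785 and 0.728 FPKM in GV and MII oocytes of May, and at 0.236, 0.466 and 0.6145 and 0.324, 0.4905 and 0.709 FPKM in July. Its groups overlapped, at 0.21 ± 0.14 (adjusted p = 0.27) and 0.07 ± 0.10 (adjusted p = 0.652); without GV May replicate 6, its highest GV library, the adjusted p in May was 0.0164.

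None of the 8 adaptors and mRNA-binding recruiters passed in either month, against 24.2% of all genes in May and 30.7% in July. Their libraries overlapped throughout, whereas 4.65% of genes were higher and 8.98% lower without overlap in May, and 3.07% and 14.7% in July. Whether these 8 members differ from those shares was not tested. TOB1, which links CNOT7 to poly(A)-binding protein, lay at 0.981, 2.74 and 12.55 and 2.95, 3.645 and 16.0 FPKM in GV and MII oocytes of May, and at 1.21, 1.97 and 8.41 and 1.58, 2.16 and 10.2 FPKM in July. Its change was 0.31 ± 0.54 (adjusted p = 0.68) and 0.35 ± 0.46 (adjusted p = 0.588). ZFP36L2, which binds AU-rich elements and is required for female fertility in mice, lay at 0.367, 0.871 and 10.03 and 0.461, 0.832 and 4.26 FPKM in May, and at 0.437, 0.851 and 2.32 and 0.422, 0.612 and 2.64 FPKM in July. It changed by -0.48 ± 0.52 (adjusted p = 0.493) and -0.07 ± 0.26 (adjusted p = 0.862). BTG1, BTG3, TOB2, ZFP36 and ZFP36L1 differed by -0.10 to 0.70, with adjusted p from 0.436 to 0.941 over both months.

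For several of these genes 1 or more libraries were far above the rest. ZFP36L1 had group medians of 14.5 to 20.2 FPKM, but reached 67.4 in GV May replicate 6, 201.6 in MII May replicate 6 and 220.6 in GV July replicate 2. In MII July it reached 121.2 FPKM in replicate 6 and 107.3 FPKM in replicate 4. BTG1, with medians between 6.99 and 16.4 FPKM, reached 57.4 in GV May replicate 3 and 54.1 in GV May replicate 6. It also reached 85.9 in MII May replicate 6, 54.5 in GV July replicate 2 and 57.1 in MII July replicate 6. Apart from GV May replicate 3, these are the libraries of low mapped share named above, and the spread they add was part of each standard error.

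**Figure D3:**
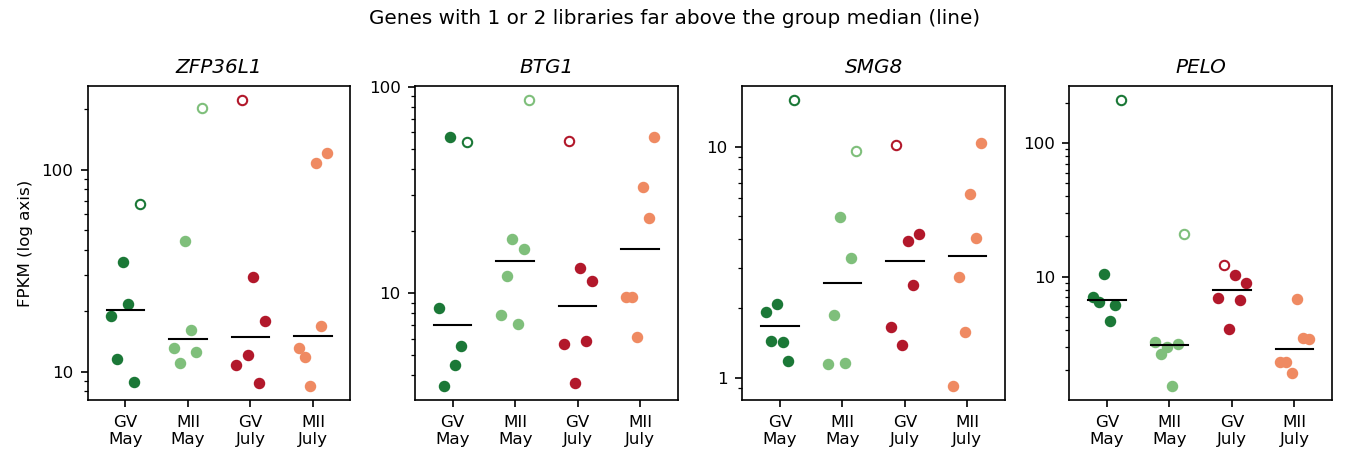
FPKM of ZFP36L1, BTG1, SMG8 and PELO in each library, on log axes, with a line at the group median and open circles for the 3 libraries with the lowest mapped share. PELO in GV May replicate 6 stands at 209.2 FPKM against 4.65 to 10.5 in the other GV May libraries, and ZFP36L1 in GV July replicate 2 at 220.6 FPKM against a group median of 14.9.

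Decapping factors diverged. DCP1A, the activator of the decapping enzyme, was higher in MII oocytes, at 0.218, 0.251 and 0.337 FPKM in GV and 0.669, 1.03 and 3.28 FPKM in MII oocytes of May. The July values were 0.269, 0.421 and 0.773 FPKM in GV and 0.6246, 1.155 and 2.63 FPKM in MII oocytes. All MII libraries were above all GV libraries in May, and the groups overlapped in July. The change was 0.83 ± 0.20 (adjusted p = 0.0097) in May and 0.69 ± 0.22 (adjusted p = 0.0331) in July, 5.15-fold and 3.21-fold by the means. Leaving out GV July replicate 1, 3, 4 or 5 or MII July replicate 4, 5 or 6 took the July adjusted p to between 0.054 and 0.0685. DCP2, the decapping enzyme itself, was at 0.158, 0.327 and 2.0 and 0.01, 0.614 and 0.851 FPKM in May, and at 0.164, 0.323 and 0.407 and 0.261, 0.6095 and 1.115 FPKM in July. The groups overlapped, at 0.04 ± 0.23 (adjusted p = 0.916) and 0.32 ± 0.13 (adjusted p = 0.082). Without MII July replicate 4 DCP2 passed in July (adjusted p = 0.0392).

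EDC3, an enhancer of decapping, was lower in MII oocytes in July. Its values were 0.0440, 0.122 and 0.262 FPKM in GV and 0.0452, 0.0643 and 0.09505 FPKM in MII oocytes of May, and 0.116, 0.151 and 0.2035 and 0.0319, 0.0505 and 0.134 FPKM in July. A single MII library, replicate 6 of July, lay within the GV range of that month. The change was -0.09 ± 0.05 (adjusted p = 0.17) in May and -0.12 ± 0.03 (adjusted p = 0.00517) in July, where the mean was 2.48-fold lower and CPM changed by -1.64 on the log2 scale. DCPS, the scavenger enzyme that destroys the cap left after 3'-5' decay, was also lower. It lay at 0.316, 0.373 and 0.613 FPKM in GV and 0.0973, 0.196 and 0.3075 FPKM in MII oocytes of July, without overlap, at -0.26 ± 0.07 (adjusted p = 0.0188); without MII July replicate 5 the adjusted p was 0.0514. In May it changed by -0.27 ± 0.10 (adjusted p = 0.073), and passed without GV May replicate 1, 3 or 6 (adjusted p from 0.0463 to 0.0496) and on log2(CPM + 1) (adjusted p = 0.0226). PNRC2, a bridge between decapping and surveillance factors, changed by 0.83 ± 0.34 (adjusted p = 0.0923) and 0.35 ± 0.24 (adjusted p = 0.291), and its paralog PNRC1 by 0.00 ± 0.34 (adjusted p = 0.997) and -0.17 ± 0.15 (adjusted p = 0.404). PNRC2 passed in May without GV May replicate 3 (adjusted p = 0.0423) and in July without GV July replicate 2 (adjusted p = 0.0349).

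XRN1, the cytoplasmic 5'-3' exonuclease that consumes decapped mRNA, rose in May. It was listed at 0.0743, 0.119 and 0.247 FPKM in GV and 0.291, 0.479 and 0.706 FPKM in MII oocytes of May, and at 0.103, 0.158 and 0.383 and 0.205, 0.334 and 0.639 FPKM in July. The groups were apart in May and overlapped in July through GV July replicate 2. The change was 0.40 ± 0.08 (adjusted p = 0.00502) in May, with the mean 3.72-fold higher, and 0.22 ± 0.08 (adjusted p = 0.0592) in July. It passed in July on log2(CPM + 1) (0.91, adjusted p = 0.0356), and without GV July replicate 2 or MII July replicate 4 (adjusted p of 0.015 and 0.0353). XRN2, the nuclear counterpart, changed by 0.31 ± 0.27 (adjusted p = 0.394) and 0.14 ± 0.21 (adjusted p = 0.658), and passed in May without GV May replicate 6 (adjusted p = 0.0395).

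The largest changes among the members were in the RNA exosome, the ring of subunits that degrades RNA from the 3' end. Of 10 members of the class tested, 3 were lower in May (30%, against 24.2% of all genes called and 14.7% called lower) and 4 in July (40%, against 30.7% and 23.1%), and none was called higher. EXOSC6, a ring subunit, was listed at chr18:1853417-1853641, a span of only 224 bases, so that its values rest on few fragments. Its values were 24.1, 58.95 and 85.0 FPKM in GV and 0.01, 1.38 and 7.34 FPKM in MII oocytes of May, and 9.74, 42.9 and 149 and 0.5003, 1.435 and 4.55 FPKM in July. All MII libraries were below all GV libraries in both months, and 2 MII May libraries were at the lowest value of the table. The change was -4.39 ± 0.53 (adjusted p = 0.00017) in May and -3.98 ± 0.53 (adjusted p = 0.000151) in July, with means 25.3-fold and 27.6-fold lower. The median number of fragments was 59 in GV May, 1.5 in MII May, 112 in GV July and 3 in MII July libraries.

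EXOSC4, another ring subunit at chr14:1947198-1949075, rested on more fragments, with medians of 1099.5 in GV and 103.5 in MII libraries of May. It lay at 21.8, 63.1 and 124.5 FPKM in GV and 2.07, 6.79 and 10.7 FPKM in MII oocytes of May. July gave 8.77, 56.7 and 99.2 FPKM in GV and 1.05, 4.43 and 17.7 FPKM in MII oocytes. The groups were apart in May, and in July the lowest GV library, replicate 2, lay within the MII range. The change was -3.15 ± 0.43 (adjusted p = 0.000359) in May and -2.89 ± 0.64 (adjusted p = 0.00464) in July, or 10.9-fold and 7.89-fold lower by the means.

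EXOSC1, a cap subunit that binds RNA at the entry of the ring (chr26:18522299-18528930), was lower in MII oocytes as well. It was at 5.81, 8.97 and 13.1 FPKM in GV and 0.302, 0.654 and 1.495 FPKM in MII oocytes of May, and at 7.63, 9.73 and 11.7 and 0.325, 1.14 and 1.72 FPKM in July. No MII library reached the GV range in either month. The change was -2.50 ± 0.22 (adjusted p = 2.5e-05) in May and -2.44 ± 0.20 (adjusted p = 7.81e-06) in July, with means 12.1-fold and 9.44-fold lower. Both exact permutation p-values were 0.00216, the smallest that the assignments of 6 and 6 libraries can give. The calls of EXOSC1, EXOSC4 and EXOSC6 held without each library in turn and on log2(CPM + 1).

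The other subunits had smaller differences. EXOSC9, a ring subunit, was at 13.0, 15.3 and 16.5 FPKM in GV and 5.54, 6.70 and 13.0 FPKM in MII oocytes of July, without overlap. Its change was -0.90 ± 0.19 (adjusted p = 0.00376) in July and -0.52 ± 0.30 (adjusted p = 0.215) in May. EXOSC8, also of the ring, changed by -0.66 ± 0.33 (adjusted p = 0.156) and -0.52 ± 0.35 (adjusted p = 0.286), and passed without GV May replicate 6 (adjusted p = 0.012) and without GV July replicate 2 (adjusted p = 0.0156). EXOSC3, a cap subunit, was listed at 19.9, 26.9 and 49.3 and 27.7, 37.2 and 65.3 FPKM in GV and MII oocytes of May, and at 15.0, 22.6 and 103 and 19.9, 42.5 and 67.7 FPKM in July. It was not called, at 0.51 ± 0.27 (adjusted p = 0.184) and 0.56 ± 0.44 (adjusted p = 0.362), and without GV July replicate 2 it was higher in MII oocytes of July (adjusted p = 0.0291). Within a library, the ratio of EXOSC4 to EXOSC3, which does not depend on library scaling, had a median of 2.28 in GV and 0.184 in MII oocytes of May, and of 2.44 and 0.0874 in July. That of EXOSC1 to EXOSC3 went from 0.320 to 0.0175 in May and from 0.469 to 0.0196 in July, and that of EXOSC6 from 2.40 to 0.0283 and from 1.91 to 0.0456. The medians were closer for EXOSC8 to EXOSC3, at 1.32 and 0.592 in May and 1.72 and 0.599 in July, and for EXOSC9, at 0.522 and 0.277 and at 0.690 and 0.221. EXOSC3, itself higher by its mean in MII oocytes, was taken as the denominator after its values were seen.

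EXOSC10, the nuclear exonuclease of the exosome, lay at 0.444, 0.6645 and 1.15 and 0.621, 1.04 and 1.745 FPKM in May, and at 0.458, 0.815 and 1.865 and 0.513, 0.9425 and 1.73 FPKM in July. The groups overlapped, at 0.31 ± 0.16 (adjusted p = 0.171) and 0.10 ± 0.21 (adjusted p = 0.753). EXOSC2, the exonuclease DIS3L and the helicase SKIV2L2, whose listed span overlaps PLPP1 on the opposite strand, differed by -0.18 to 0.06 and did not pass. SKIV2L2 passed in May without GV May replicate 6 (adjusted p = 0.0342).

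**Figure D4:**
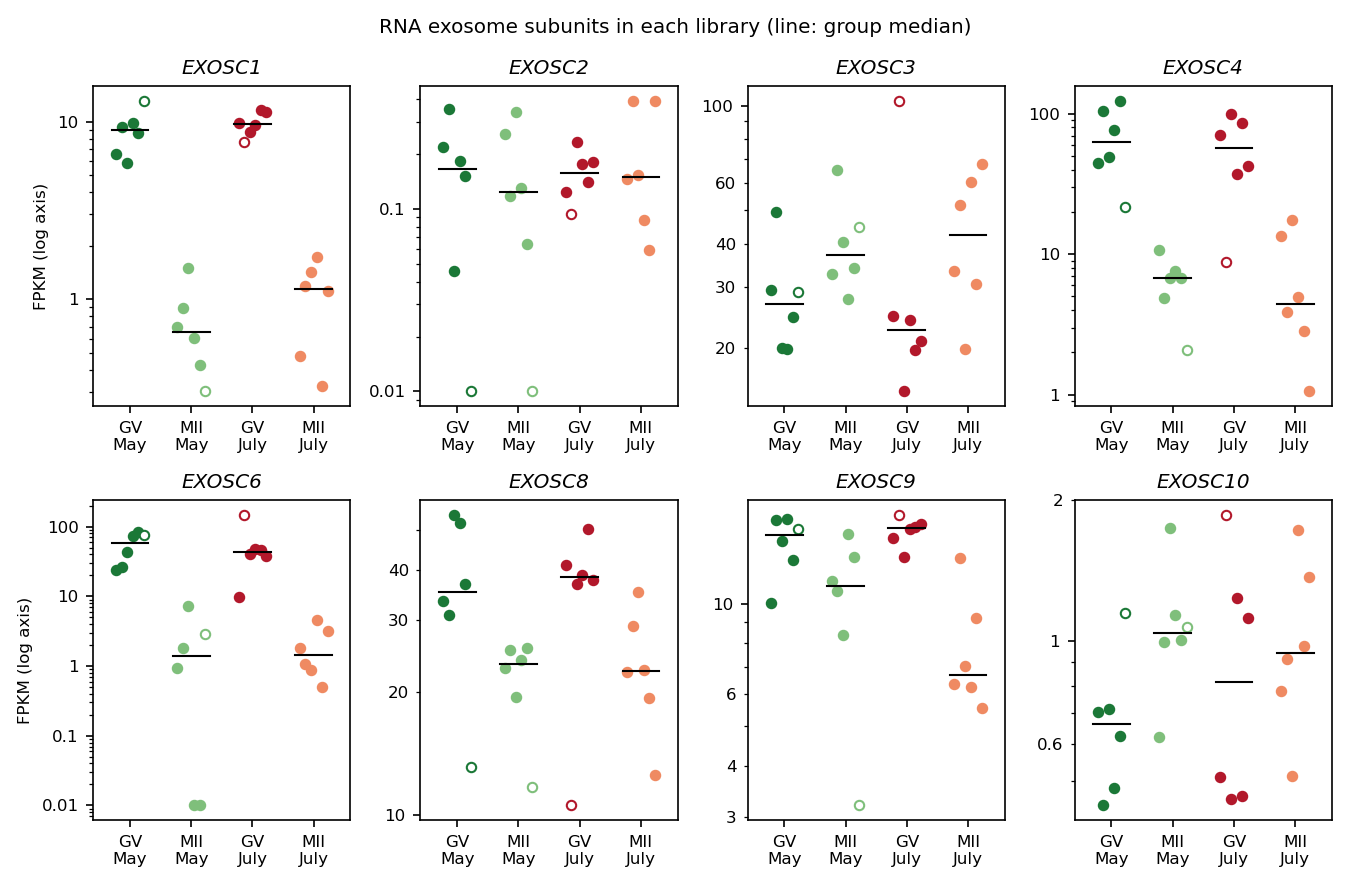
FPKM of 8 RNA exosome subunits in each of the 6 libraries per group, on log axes, with a line at the group median and open circles for the 3 libraries with the lowest mapped share. The MII values of EXOSC1 and EXOSC6 lie below all GV values in both months, while EXOSC3 has a higher median in MII than in GV oocytes and EXOSC2 is spread over the same range at both stages.

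In nonsense-mediated decay, which removes mRNAs with premature stop codons, 1 of 7 factors tested rose and 2 fell in May (42.9%, against 24.2% of all genes), and 2 fell in July (28.6%, against 30.7%). UPF3B, at chrX:4015333-4032279, links exon junction complexes to the UPF proteins. In May it was at 0.137, 0.351 and 0.573 FPKM in GV and 1.97, 2.12 and 2.31 FPKM in MII oocytes, and in July at 0.4275, 0.5785 and 0.908 and 0.590, 1.35 and 1.93 FPKM. All MII libraries of May were above all GV libraries and lay close together, whereas in July the groups overlapped. The change was 1.23 ± 0.13 (adjusted p = 0.000106) in May, with the mean 6.17-fold higher, and 0.46 ± 0.18 (adjusted p = 0.0699) in July, 2.08-fold by the means. UPF3B passed in July when GV July replicate 2 or MII July replicate 3 or 4 was left out (adjusted p from 0.0335 to 0.0436).

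SMG9 and SMG5 fell. SMG9, a regulator of the kinase SMG1, was listed at 0.185, 0.248 and 0.848 FPKM in GV and 0.0366, 0.0569 and 0.165 FPKM in MII oocytes of May, and at 0.329, 0.493 and 0.6335 and 0.01, 0.0630 and 0.135 FPKM in July. The groups did not overlap in either month. The change was -0.31 ± 0.10 (adjusted p = 0.0353) and -0.47 ± 0.06 (adjusted p = 0.000171), or 4.72-fold and 6.78-fold lower by the means, and on log2(CPM + 1) -2.20 and -2.86. The May call was lost without GV May replicate 4 or any of MII May replicates 1, 2, 4, 5 and 6 (adjusted p from 0.056 to 0.0715). SMG5, which recruits decay enzymes to phosphorylated UPF1, was at 0.128, 0.1485 and 0.199 and 0.0393, 0.0661 and 0.115 FPKM in May, and at 0.161, 0.256 and 0.285 and 0.0229, 0.0591 and 0.2155 FPKM in July. The groups were apart in May and overlapped in July. Its change was -0.11 ± 0.03 (adjusted p = 0.0169) and -0.20 ± 0.04 (adjusted p = 0.00451), which by the means was 2.30-fold and 2.99-fold lower. The median of fragments in MII libraries was 7.5 for SMG9 and 8.5 for SMG5 in May.

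SMG1, the kinase that phosphorylates UPF1, was at 0.0341, 0.0494 and 0.864 and 0.0958, 0.2265 and 0.6095 FPKM in May, and at 0.0801, 0.105 and 0.481 and 0.0791, 0.206 and 0.386 FPKM in July. GV May replicate 6 and GV July replicate 2 stood far above the other GV libraries, and the groups overlapped. The change was 0.14 ± 0.14 (adjusted p = 0.479) and 0.07 ± 0.08 (adjusted p = 0.551), and without GV May replicate 6 it passed in May (adjusted p = 0.017). SMG6 and SMG8 differed by -0.02 to 0.15 and did not pass. PELO, which rescues stalled ribosomes, was at 4.02, 7.89 and 12.3 FPKM in GV and 1.89, 2.88 and 6.825 FPKM in MII oocytes of July, where it changed by -1.09 ± 0.28 (adjusted p = 0.0119). In May, with GV May replicate 6 at 209.2 FPKM, its values were 4.65, 6.73 and 209 and 1.53, 3.06 and 20.9 FPKM and the change was -1.45 ± 0.82 (adjusted p = 0.207).

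Summer was then compared with spring at each stage. No gene passed the adjusted threshold in GV oocytes (0% of genes tested), in MII oocytes (0%) or in the test of whether the change from GV to MII differed between the months (0%). At an unadjusted p under 0.05, 2 members differed in GV oocytes (SMG5 and UPF3B), against 1.55% of all genes tested, 3 in MII oocytes (PAN2, PNRC1 and UPF3B), against 2.11%, and 1 in the season difference (UPF3B), against 1.8%. At an unadjusted p under 0.05 with over 2-fold change on the log2(FPKM + 1) scale no member was called, against 0.0315%, 0.042% and 0.21% of genes. With the fold between group means, no member was called in GV oocytes (0.588% of genes were) and PNRC1, lower in July, was called in MII oocytes (0.735% of genes were). A p that misses the threshold does not show that the months were alike. The log2 difference of July from May over the 45 members had a median of 0.04 in GV oocytes, with a range from -0.61 to 0.44, and of 0.00 in MII oocytes, from -0.51 to 0.35.

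Among the members, UPF3B had the smallest unadjusted p in MII oocytes and in the season difference, and SMG5 had it in GV oocytes. In MII oocytes the 6 July libraries of UPF3B all lay below its 6 May libraries, as 0.178% of genes did in either direction. The change was -0.51 ± 0.17 (adjusted p = 1) and the unadjusted p was 0.0117, and the exact permutation p of 0.00216 was the smallest possible. In GV oocytes the months overlapped and July was higher, at 0.26 ± 0.11 (adjusted p = 1) with an unadjusted p of 0.0423; no member was without overlap there, against 0.178% of genes. The MII against GV change of July less that of May was -0.76 ± 0.21 (adjusted p = 1), with an unadjusted p of 0.00138, and -1.69 on log2(CPM + 1). None of these passed adjustment. PAN2 was higher in July in MII oocytes by 0.35 (unadjusted p = 0.045, adjusted p = 1), PNRC1 lower there (-0.51, unadjusted p = 0.0231, adjusted p = 1), and SMG5 higher in July in GV oocytes by 0.10 (unadjusted p = 0.0352, adjusted p = 1).

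Genes that store, tail or guard maternal mRNA alongside the decay machinery were taken from a list of 76 symbols, of which 47 were listed and 45 tested. In May, 7 were higher and 3 lower in MII oocytes (22.2%), and in July 6 were higher and 3 lower (20%), against the shares of all genes given above. The LSM proteins form a ring on deadenylated 3' ends that promotes decapping. Of their genes, LSM2 and LSM3 fell and LSM7 rose, while LSM1, LSM4, LSM5 and LSM6 passed in neither month. LSM3 was at 73.5 ± 28.8 FPKM (SD, n = 6) in GV oocytes of May and fell to 16.2 ± 4.61 in MII oocytes (-2.05 ± 0.28, adjusted p = 0.000408) and from 70.9 ± 21.0 to 20.9 ± 5.36 in July (-1.70 ± 0.23, adjusted p = 0.000165). LSM7 rose from 41.5 ± 19.9 to 100.1 ± 17.5 FPKM in May (1.44 ± 0.38, adjusted p = 0.0164) and from 56.2 ± 20.9 to 119.1 ± 22.0 FPKM in July (1.15 ± 0.27, adjusted p = 0.00703). In both genes MII and GV libraries did not overlap in either month. LSM2 fell by 1.07 in May and by 1.03 in July on the log2 scale.

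NUDT16, a nuclear decapping enzyme, fell by 2.91 (adjusted p = 0.000137) in May and by 2.60 (adjusted p = 0.000179) in July, without overlap. PAPOLG, a nuclear poly(A) polymerase, rose in May from 5.76 ± 2.82 to 20.0 ± 4.16 FPKM (1.70 ± 0.25, adjusted p = 0.000629), and in July its groups overlapped (0.86 ± 0.41, adjusted p = 0.133). RBM8A and MAGOH pair in the core of the exon junction complex. RBM8A rose by 1.41 in May and 0.73 in July, while MAGOH rose by 1.32 in July and stood at 0.96 in May (adjusted p = 0.0655). ANGEL2, PAPD4, YTHDF2 and ZCCHC6 also passed in May, and HBS1L, MPHOSPH6 and PAPOLA in July, all higher in MII oocytes.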

How the data were processed

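RNA of 24 libraries of bovine oocytes was measured by Smart-seq2 v4 and paired-end sequencing. The authors trimmed the reads, checked them with FastQC, aligned them to UMD3.1.1 (UMD3.1 in the processing notes) with STAR 2.5.3a and deposited FPKM, which the methods describe as per kilobase of exon; the values themselves divide by the whole listed gene, are scaled to a common total of 86768.1 to 86768.2 per library and are never under 0.01. The kit does not mark strand. No replicate was pooled, and no 2 libraries were identical.

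From the deposited FPKM, log2(FPKM + 1) was tested with limma 3.58.1 in R 4.3.3 (trend, two-sided) over the 9526 genes above 0.1 FPKM in at least 1 library, with only the 2 groups compared in the fit and Benjamini-Hochberg adjustment over all genes. The season difference was fitted over all 4 groups. The methods of the study call genes at an unadjusted p with 2-fold change in Partek; second counts use these cut-offs with the fold on log2(FPKM + 1) and, added after seeing the data, between group means. Exact permutation tests were two-sided over all assignments of 6 and 6 libraries. A member was called at an adjusted p under 0.05. Fragments were recovered and plots drawn with Python 3.11.15, numpy 2.4.6, pandas 2.3.3 and matplotlib 3.10.9. The scripts were tested on simulated data.

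Members, lists and tests were chosen with earlier results of these data known. Given in full were members fixed for their role and, per role class, up to 2 further members called in both months with the largest mean change; other members are given by values or ranges, and of the companion genes the 3 with the largest mean change in each direction have values. EXOSC1, EXOSC9, EXOSC8, EXOSC3, DCPS and PELO were given values beyond that rule, after these were seen. The alternatives tried were 0.1 as the pseudocount, all genes unfiltered, genes with a mean of 1 FPKM or more, quantile and median-of-ratios scaling, robust moderation, 1 fit of all groups, a replicate block, leaving out the 3 libraries with the lowest mapped share and leaving out each library; leaving out 5 libraries and log2(CPM + 1) of recovered fragments were added after seeing the data. The labels do not say that replicate numbers pair the samples, and outside the replicate block they were not used as pairs. The values of 2 members are not reported here; both were kept in the fits and in the counts of members.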

Additional observations from a re-analysis of the deposited data

Results flagged for a closer look

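In 17 of 84 groups of 6 libraries tested (21 members in 4 groups), 1 library lay far from the other 5 by Dixon's criterion. The criterion was applied on log2(FPKM + 1), and the library marked was in each case on the high side. It marks about 5% of groups where values are independent and normally distributed. That was not checked, and the groups share the same 24 libraries, so the count is not set against this rate. Of the 17 marked, 15 were libraries among the 5 with the lowest mapped share. GV July replicate 2 stood apart for CNOT6 (0.508 FPKM), TOB1 (8.41), ZFP36L2 (2.32), XRN1 (0.383) and SMG1 (0.481). MII May replicate 6 stood apart for CNOT6 (1.35 FPKM), TOB1 (16.0), ZFP36L2 (4.26) and DCP1A (3.28). GV May replicate 6, which has the fewest fragments, stood apart for PARN (1.05 FPKM), DCP2 (2.0), SMG1 (0.864) and SMG9 (0.848). MII July replicate 4 was apart for ZFP36L2 (2.64 FPKM) and MII July replicate 6 for EDC3 (0.134). The other 2 were CNOT1 (0.862 FPKM) in GV May replicate 3 and SMG9 (0.165) in MII May replicate 3.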

How the results depend on the processing

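The number of members called between GV and MII oocytes was 11 in May and 14 in July. It moved to 6 and 7 when only the 3665 genes with a mean of 1 FPKM or more were tested. Fewer members were tested there, and 44.6% and 45.6% of those genes were called. At an unadjusted p with 2-fold change on log2(FPKM + 1) it moved to 5 and 5 (11.8% and 11.5% of genes). With the fold between group means, added after seeing the data, it was 14 and 16 (33.8% and 35% of genes). In May it moved to 18 after quantile normalization (34.3% of genes). Without the 3 or without the 5 libraries with the lowest mapped share it was 21 in May (41.9% of genes), the 5 chosen after seeing the data. With 1 library left out it ranged from 10 to 19 in May, with 19 without GV May replicate 6, and from 9 to 21 in July, with 21 without GV July replicate 2 and 9 without MII July replicate 5. The share of all genes called with 1 library left out is not given, so these ranges are not read as particular to the members. Over all genes, 2304 were called in May, and 3991 without the 3 libraries or 1126 by the 2-fold rule; in July, 2929 were called, and 1672 among the genes with a mean of 1 FPKM or more or 1092 by the 2-fold rule. Beyond the smaller sets of genes or libraries named, the cause was not tested. The season comparisons called 0 members under each alternative except the fold between group means, which called 1 in MII oocytes, and no paralog ratio given here passed the threshold under any of its 17.

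The sign changed in 33 fits of 9 values, of which 0 passed the threshold as reported or in the changed fit. After quantile normalization, CNOT8 and ZFP36L2 in July stood at 0.04 and 0.13. On log2(CPM + 1), DCP2 in May stood at -0.19, and the ratio differences between the months were -0.10 for CNOT6L to CNOT6 in MII and -0.71 for CNOT7 to CNOT8 in GV oocytes. With a pseudocount of 0.1 that of CNOT7 to CNOT8 in GV was -0.39. Without the 3 libraries ZFP36L2 in July was 0.09, and the MII ratio of CNOT7 to CNOT8 between months was 0.17. Without the 5 libraries the ZFP36L2 to ZFP36L1 ratio was 0.03 between stages in July and 0.23 between months in MII, and that of CNOT6L to CNOT6 between months in MII was -0.03. With 1 library left out, DCP2 in May ranged from -0.04 to 0.24 and ZFP36L2 in July from -0.27 to 0.09. The ratio ranges between months in GV were -0.06 to 0.21 for CNOT6L to CNOT6 and -0.29 to 0.42 for CNOT7 to CNOT8. In MII they were -0.06 to 0.26 and -0.32 to 0.17, and -0.54 to 0.20 for ZFP36L2 to ZFP36L1. Between stages in July that of ZFP36L2 to ZFP36L1 was -0.73 to 0.16.

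The replicate numbers were tested as a block: 14 members were called in May and 15 in July with the replicate block (30% and 31.5% of all genes were), and 0 in the season comparisons. Between stages, libraries of the same number had correlations from -0.169 to 0.535 in May and from -0.279 to 0.649 in July. There, 2 of 6 and 1 of 6 libraries correlated best with their own number. Between months the correlations ran from -0.322 to 0.439 in GV and from -0.441 to 0.764 in MII oocytes, with 1 of 6 and 4 of 6 best with their own number. The labels do not tie a number to a cow, so the number was read as a name only. Whether it pairs the MII libraries of the months was not tested.

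Fragments behind values were few for EXOSC6, SMG5 and SMG9 in MII libraries, for which counting error is large, and the 324654 fragments of GV May replicate 6 limit every member there.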
